A study of Mus musculus with 6 samples.

Results

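The PP1 glycogen-targeting subunits are the regulatory proteins that carry protein phosphatase 1 (PP1) to glycogen. The 6 genes Ppp1r3a to Ppp1r3f were taken by symbol from the gene table of 24054 genes. All 6 had a row, and all 6 passed the filter on low counts that left 12660 genes for testing. The description covers their relative levels in gastrocnemius muscle (GAS) and how each differed between genotypes and between libraries.

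Glycogen is the glucose store of muscle. Its synthesis by glycogen synthase is switched on when PP1 removes phosphate from the enzyme, and its breakdown by glycogen phosphorylase is switched off when PP1 removes phosphate from phosphorylase and phosphorylase kinase. The catalytic subunit of PP1 finds these substrates through targeting subunits, each of which binds PP1 with one region and glycogen with another. Ppp1r3a encodes GM, the subunit typical of striated muscle. Ppp1r3c encodes PTG (protein targeting to glycogen), which is found in many tissues, including muscle, liver and fat. Ppp1r3b encodes GL, best known from liver, while Ppp1r3d, Ppp1r3e and Ppp1r3f encode subunits that are less studied in muscle.

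The libraries were made from GAS of male C57BL/6 mice, 3 with muscle-specific IRF4 knockout (MI4KO) and 3 with muscle-specific IRF4 overexpression (MI4OE). IRF4 is a transcription factor of the interferon regulatory factor family. MI4KO mice were Irf4 flox/flox;Cre+ and MI4OE mice carried Rosa26-LSL-Irf4, and both groups carried Myl1-Cre. This Cre is expressed from the locus of Myl1, a myosin light chain gene of fast fibres, so that cells other than muscle fibres keep their own Irf4. High fat diet is the food given in the labels of all 6, but the study's text speaks of chow, so the diet is uncertain, and no age is given. With no flox or wild-type GAS analysed here, a difference cannot be assigned to either the loss or the excess of IRF4. Each library is called by its group and replicate number below, as in MI4KO 1. The labels do not state that libraries came from separate animals, and p-values measure the spread between these libraries.

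Irf4 had 6, 0 and 2 counts in MI4KO and 2864, 10557 and 5911 in MI4OE, so the overexpression label held in every MI4OE library. The low counts in MI4KO go with the knockout label but cannot show that it held, as no flox or wild-type GAS was analysed here. Total expected counts ran from 18828605 to 29239585 per library, and a floor of 3 counts stood at 0.101 to 0.148 CPM, the counts-per-million scale. Fast-fibre markers (13 genes) summed to 300717 to 335151 TPM in MI4KO and 218040 to 313037 TPM in MI4OE, where TPM, the transcripts-per-million scale, is adjusted for transcript length. One library stood apart by its slow-fibre markers (11 genes), which summed to 11229 TPM in MI4OE 1, against 30.9 to 243 TPM in MI4KO and 36.1 and 1142 TPM in MI4OE 2 and 3. MI4KO 3 had the highest sums of adipocyte and hepatocyte markers, as given below.

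Promoter sequences were available for 4 of the 6 genes, and those of the abundant subunits are shown because their levels carry most of the results. They are the 250 bases before the RefSeq start of each gene in GRCm38.p6, given 5′ to 3′ on the minus strand, for Ppp1r3c at chr19:36736605-36736854 and for Ppp1r3a at chr6:14755275-14755524. Capitals mark a CCAAT box, an E-box with the letters CACGTG or a TATA box, on either strand.
Ppp1r3c: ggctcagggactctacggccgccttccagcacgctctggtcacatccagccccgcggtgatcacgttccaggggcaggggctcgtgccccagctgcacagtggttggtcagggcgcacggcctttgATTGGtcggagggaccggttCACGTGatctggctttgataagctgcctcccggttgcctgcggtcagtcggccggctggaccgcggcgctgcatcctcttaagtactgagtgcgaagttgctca
Ppp1r3a: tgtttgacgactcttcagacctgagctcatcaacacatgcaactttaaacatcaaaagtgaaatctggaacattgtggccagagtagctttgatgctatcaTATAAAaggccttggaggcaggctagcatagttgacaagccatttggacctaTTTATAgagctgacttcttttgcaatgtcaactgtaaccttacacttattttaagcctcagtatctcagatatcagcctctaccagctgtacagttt

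The promoters of these subunits differed in base composition. The Ppp1r3c sequence was 64.4% G or C and the Ppp1r3a sequence 40.4%, against a median of 52.4% over all RefSeq promoters of that length. Searches ran over both strands of the whole 300-base window, which adds the 50 bases after the start. The interferon-stimulated response element, to which IRF proteins bind, had no match in the windows of Ppp1r3a, Ppp1r3c, Ppp1r3d or Ppp1r3f, and was present in 3.44% of all 32851 promoters. The Ets-IRF composite element had no match in the 4 windows either, and was present in 2.72% of promoters. The other motifs were chosen after the sequences were seen. Ppp1r3c and Ppp1r3d each held 1 E-box, found in 7.15% of promoters. A CCAAT box, found in 37.4% of promoters, was held by Ppp1r3a, Ppp1r3c and Ppp1r3f. The Ppp1r3a match begins at base 26 after the start, and Ppp1r3c has a match at base 36, both beyond the bases shown. The TATA box letters TATAAA, found in 13.6% of promoters, were held by Ppp1r3a alone of the 4. Its matches begin at positions -149 and -97 from the start. These are matches of letters only.

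Ppp1r3c was the most abundant subunit in every library. Its level was 731, 443 and 211 TPM in MI4KO 1, 2 and 3 and 82.7, 173 and 162 TPM in MI4OE 1, 2 and 3. Its mean over the 6 libraries placed it 349th among the 24054 genes. Ppp1r3a came next, with 16.0, 53.5 and 22.3 TPM in MI4KO and 10.7, 31.8 and 27.5 TPM in MI4OE, and its mean took place 2653. The remaining subunits were scarce. Ppp1r3f had a mean of 2.09 TPM (range 1.68 to 2.67), Ppp1r3d 1.78 TPM (0.85 to 2.53), Ppp1r3e 1.32 TPM (0.89 to 2.02) and Ppp1r3b, the liver subunit, 0.395 TPM (0.12 to 1.19). Together these 4 made 3.85 to 8.01 TPM, or 0.513% to 4.10% of the family's TPM.

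**Figure D1:**
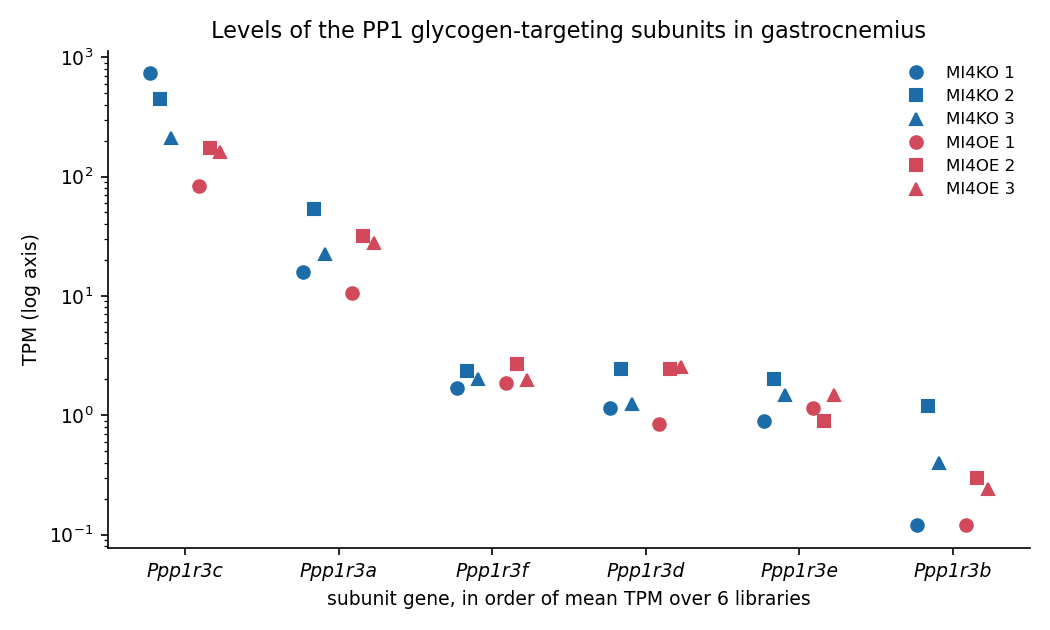
TPM of each subunit gene in each of the 6 libraries, on a log axis, with genes in order of their mean TPM. Colours mark the groups and symbols the replicate numbers. Ppp1r3c lies between 82.7 and 731 TPM, above Ppp1r3a (10.7 to 53.5 TPM) in every library, and the other subunits lie at 2.67 TPM or less.

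The order of the levels was examined pair by pair within libraries, on the scale of log2(TPM + 0.1). Ppp1r3c stood above Ppp1r3a in 6 of 6 libraries by a mean of 3.29 ± 1.13 log2 units (SD, n = 6), or 9.77-fold. Ppp1r3a stood above Ppp1r3f in 6 of 6 libraries by 3.46 ± 0.66 log2 units (SD, n = 6). At the other end, Ppp1r3e stood above Ppp1r3b in 6 of 6 libraries by 1.77 ± 0.67 log2 units, or 3.41-fold. No p is given for these pairs, because the mean levels in the same 6 libraries set which subunits were neighbours and which was the higher. The neighbours Ppp1r3f and Ppp1r3d differed by 0.32 ± 0.51 log2 units, with Ppp1r3f higher in 4 libraries. Ppp1r3d and Ppp1r3e differed by 0.34 ± 0.64 log2 units, with Ppp1r3d higher in 4 libraries. Neither of these neighbouring pairs could be ranked beyond the spread between libraries. Ppp1r3f and Ppp1r3e, which are not neighbours in the order, differed by 0.66 ± 0.45 log2 units (SD, n = 6) with Ppp1r3f higher in 6 of 6 libraries, a pair looked at after the values were seen and given no test.

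Ppp1r3c was lower in MI4OE than in MI4KO, and its groups did not overlap. It had 1434, 627 and 347 CPM in MI4KO 1, 2 and 3 and 145, 258 and 249 CPM in MI4OE 1, 2 and 3, where CPM is scaled by TMM factors and suits comparisons of 1 gene between libraries. MI4KO 1 was 4.14-fold above MI4KO 3, while the lowest MI4KO library was only 1.35-fold above the highest MI4OE library. The means were 803 ± 565 CPM (SD, n = 3) and 217 ± 62.8 CPM (SD, n = 3). MI4OE against MI4KO gave a log2 fold change of -1.89 ± 0.51 (SE) and a 95% interval from -3.08 to -0.69. The unadjusted p was 0.00688 and the adjusted p 0.512 by edgeR's quasi-likelihood test, so the difference did not pass correction over all genes. With DESeq2's Wald test it did pass, at an adjusted p of 0.0139 and a log2 fold change of -1.90, and over all alternatives the adjusted p ran from 0.0139 to 0.912. MI4KO 1 decided the size, since without it the log2 fold change was -1.17, with an unadjusted p of 0.0187 and an adjusted p of 0.756 by the quasi-likelihood test. Ppp1r3c was singled out by the study partly on these same libraries, so its difference here is not independent evidence. The study also drew on soleus muscle libraries of MI4KO and flox mice. Outside RNA-seq it reported more Ppp1r3c mRNA and PTG protein in MI4KO than in flox muscle, and less of both in MI4OE than in wild-type muscle. In bulk muscle, fewer cells of a type and less RNA per cell cannot be told apart.

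Ppp1r3a, the striated muscle subunit, did not separate the groups. It had 85.8, 208 and 100.1 CPM in MI4KO 1, 2 and 3 and 51.0, 129.8 and 116 CPM in MI4OE 1, 2 and 3. MI4KO 2 was the highest and MI4OE 1 the lowest, and 2 of the MI4OE libraries lay above 2 of the MI4KO libraries. The difference was -0.41 ± 0.44 (log2 fold change and SE), with a 95% interval from -1.43 to 0.61 (adjusted p = 0.873 by edgeR's quasi-likelihood test). The sign turned without MI4KO 2, where the value was 0.082, and without MI4OE 1 the value was -0.096. Both a fall and a rise of Ppp1r3a lie within the interval.

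**Figure D2:**
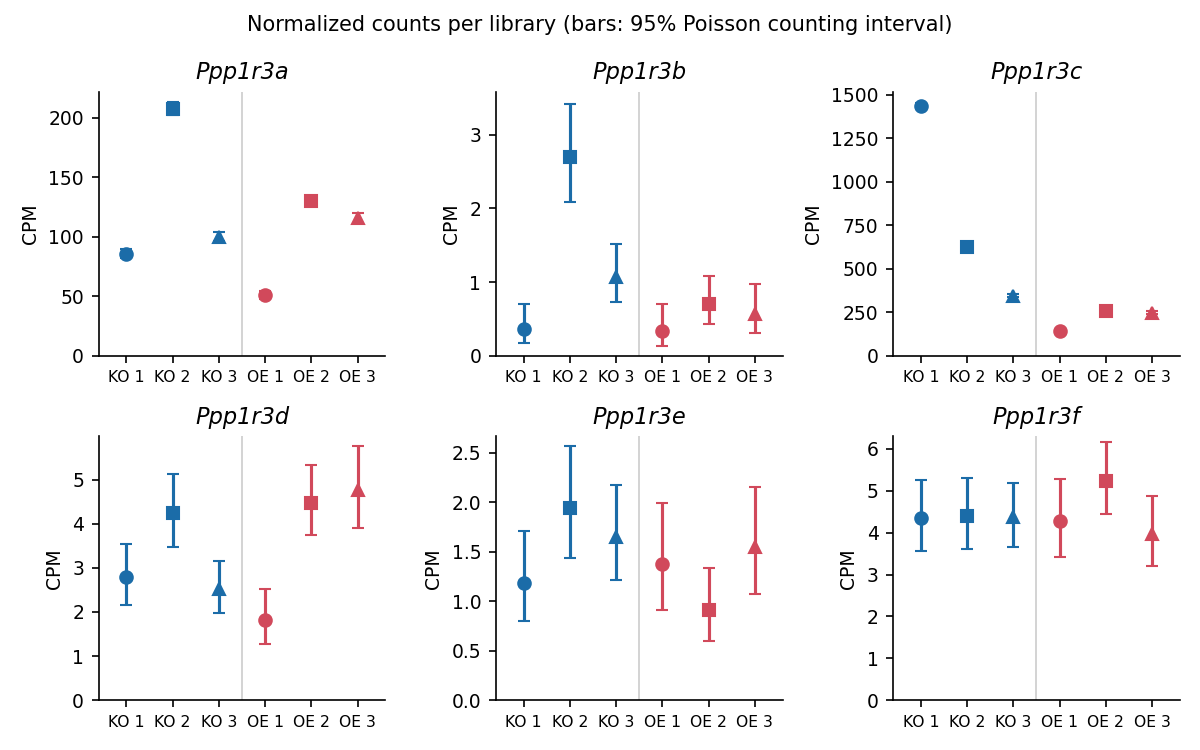
TMM-scaled CPM of each subunit in MI4KO (blue) and MI4OE (red) libraries 1 to 3, each panel on its own linear axis from 0. Bars are exact 95% Poisson intervals and cover counting error only. The groups are apart for Ppp1r3c and overlap for the other subunits. MI4KO 1 is the top library for Ppp1r3c at 1434 CPM but has 85.8 CPM of Ppp1r3a, below MI4KO 2 and 3.

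The balance between the main subunits was taken within each library, which removes any scaling between libraries. The log2 ratio of Ppp1r3c to Ppp1r3a TPM was 5.52, 3.05 and 3.25 in MI4KO 1, 2 and 3 and 2.96, 2.44 and 2.56 in MI4OE 1, 2 and 3. Every MI4KO library was above every MI4OE library, although MI4KO 2 exceeded MI4OE 1 by little. The means were 3.94 ± 1.37 and 2.65 ± 0.27 (SD, n = 3 each), a difference of -1.29 with p = 0.1 in an exact two-sided permutation test, the smallest p that 3 libraries against 3 allow. Without MI4KO 1 the difference was -0.50. Ppp1r3c made 97.4%, 87.8% and 88.5% of the family's TPM in MI4KO and 85.0%, 81.9% and 82.7% in MI4OE, and these groups did not overlap either (difference -8.01 percentage points, p = 0.1, exact permutation test). Without MI4KO 1 this difference was -4.94 percentage points, and on CPM in place of TPM it was -13.9. Both the ratio and the share contain Ppp1r3c, so they largely restate its own difference and are no separate support for it.

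The summed TPM of the family followed Ppp1r3c, which made most of it, and so is no separate support either. It was 751, 505 and 239 TPM in MI4KO 1, 2 and 3 and 97.4, 211 and 196 TPM in MI4OE 1, 2 and 3. The means were 498 ± 256 and 168 ± 61.7 TPM (SD, n = 3 each; p = 0.1, exact two-sided permutation test, at its smallest). Without MI4KO 1 the difference was -204 TPM in place of -330 TPM. The catalytic subunits of PP1, summed over 3 genes, varied far less, from 279 to 424 TPM over the 6 libraries. Targeting subunits per catalytic subunit, both as TPM, therefore ran from 0.349 in MI4OE 1 to 2.02 in MI4KO 1, with 1.19 and 0.698 in MI4KO 2 and 3 and 0.552 and 0.556 in MI4OE 2 and 3.

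**Figure D3:**
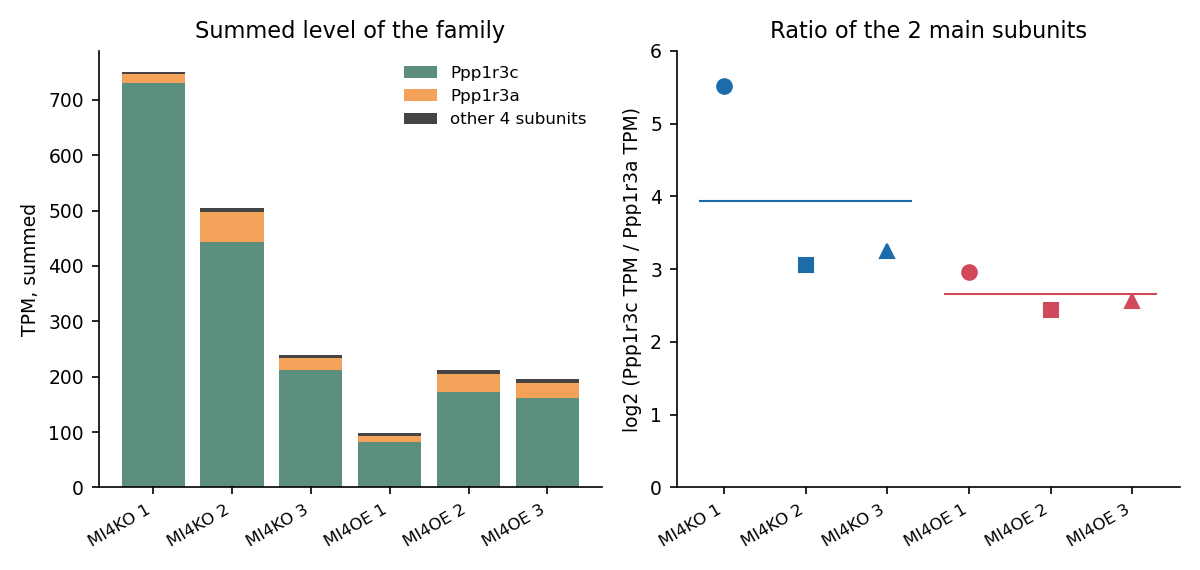
Left, summed TPM of the family per library, as stacked bars of Ppp1r3c, Ppp1r3a and the other 4 subunits. Right, log2 ratio of Ppp1r3c to Ppp1r3a TPM per library, with lines at the group means. The sums fall from 751 TPM in MI4KO 1 to 97.4 TPM in MI4OE 1, and the ratio of 5.52 in MI4KO 1 lies above the 2.44 to 3.25 of the other libraries.

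Ppp1r3b, the liver subunit, had the lowest mean TPM of the family. It had 9.11, 68.1 and 31.7 expected counts in MI4KO 1, 2 and 3 and 7.07, 20.5 and 13.4 in MI4OE 1, 2 and 3. These stand for 0.368, 2.69 and 1.07 CPM in MI4KO and 0.344, 0.699 and 0.574 CPM in MI4OE. MI4KO 2 was alone at the top, with a counting interval of 2.09 to 3.42 CPM that lay above the intervals of the other libraries, while MI4KO 1 and MI4OE 1 could not be told apart. In log2 units MI4OE differed by -1.33 ± 0.69 (SE), with a 95% interval from -2.95 to 0.29 (adjusted p = 0.726 by edgeR's quasi-likelihood test). The value was -0.42 without MI4KO 2, and without MI4KO 1 it was -1.78 at an unadjusted p of 0.0156 and an adjusted p of 0.756 by the same test. Its counts were not whole, so some reads were shared with another gene by the authors' counting and the level is uncertain to that degree.

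Ppp1r3d and Ppp1r3e showed no separation of the groups. Ppp1r3d, a widely expressed subunit, had 2.78, 4.24 and 2.52 CPM in MI4KO and 1.82, 4.47 and 4.77 CPM in MI4OE. MI4OE thus held its lowest library and its highest ones. The groups differed by 0.22 ± 0.40 (log2 fold change and SE), with a 95% interval from -0.71 to 1.15 (adjusted p = 0.929 by edgeR's quasi-likelihood test). The sign turned without MI4OE 3 (-0.012), and without MI4OE 1 the value was 0.54. Ppp1r3e had 1.19, 1.94 and 1.65 CPM in MI4KO and 1.38, 0.909 and 1.55 CPM in MI4OE, from 26 to 49 counts per library. Its libraries were interleaved, and the difference was -0.32 ± 0.35 (log2 fold change and SE), with a 95% interval from -1.13 to 0.49 (adjusted p = 0.873 by edgeR's quasi-likelihood test).

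Ppp1r3f was the steadiest of the family. It had 4.34, 4.40 and 4.37 CPM in MI4KO 1, 2 and 3 and 4.28, 5.24 and 3.97 CPM in MI4OE 1, 2 and 3. The MI4KO libraries lay within 1.01-fold of each other and inside the range of MI4OE. Between groups it differed by 0.045 ± 0.20 (log2 fold change and SE), with a 95% interval from -0.42 to 0.51 (adjusted p = 0.977 by edgeR's quasi-likelihood test). Its sign turned without MI4OE 2 (-0.084). Its interval was the narrowest of the 6, although its counts of 86.9 to 149.9 per library were far below those of Ppp1r3c.

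Of the 6 subunits, 0 had an adjusted p under 0.05 by edgeR's quasi-likelihood test, which 0.0237% of all genes tested had. One had an unadjusted p under 0.05, namely Ppp1r3c, against 7.58% of all genes. With DESeq2 1 passed correction, again Ppp1r3c, against 0.877% of all genes, while 0 did with edgeR's exact test, against 0.885%. Ppp1r3c was 1 of 6 lower in MI4OE by at least 1.5-fold at an unadjusted p under 0.05, against 2.28% of all genes in that direction. It was also 1 of 6 lower without overlap in CPM between groups, against 5.48% of all genes.

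**Figure D4:**
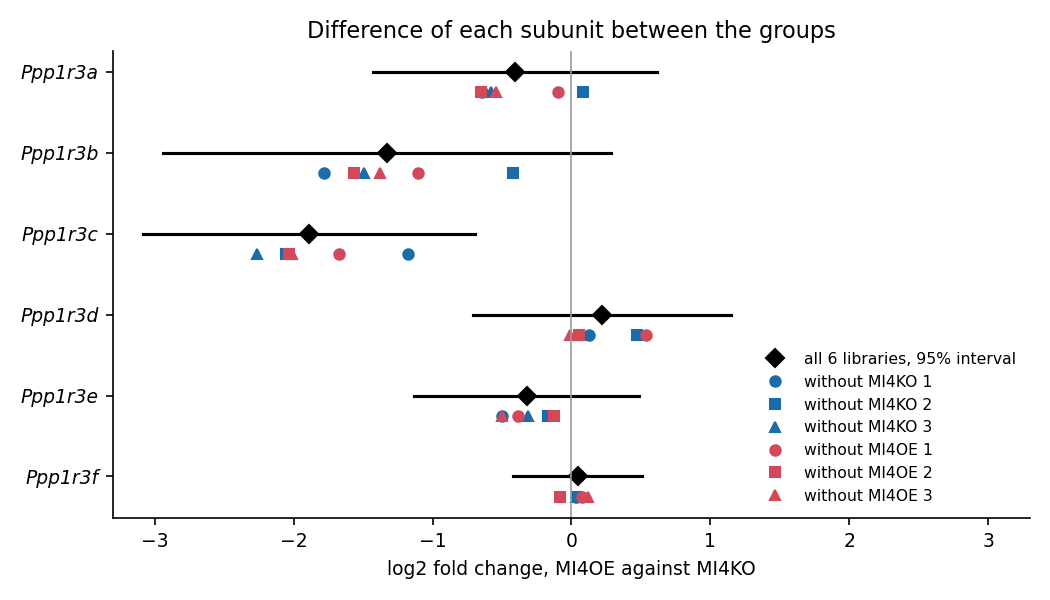
Log2 fold change of each subunit, MI4OE against MI4KO, from edgeR's quasi-likelihood fit to 6 libraries (black diamonds, with 95% intervals) and to 5 libraries with 1 left out (coloured symbols, named for the library left out). The interval of Ppp1r3c alone lies wholly below 0, from -3.08 to -0.69, and its value moves to -1.17 without MI4KO 1. Ppp1r3a lies at 0.082 without MI4KO 2.

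The subunits differed in how much they varied inside a group. The pooled SD of log2(CPM + 0.1) within groups was 0.96 for Ppp1r3b, 0.80 for Ppp1r3c, 0.71 for Ppp1r3a, 0.60 for Ppp1r3d, 0.36 for Ppp1r3e and 0.14 for Ppp1r3f, against a median of 0.31 over all genes tested. Ppp1r3c was thus more variable than 93.6% of genes and Ppp1r3a more than 90.6%, while only 12.8% of genes varied less than Ppp1r3f. Part of the spread of Ppp1r3b is counting error, as its intervals show. The libraries at the extremes were often the same ones. MI4OE 1 was the lowest library for Ppp1r3a, Ppp1r3b, Ppp1r3c and Ppp1r3d, and MI4KO 2 was the highest for Ppp1r3a, Ppp1r3b and Ppp1r3e, whereas MI4KO 1 was the highest for Ppp1r3c only and the lowest of its group for Ppp1r3a, Ppp1r3b, Ppp1r3e and, by a narrow margin, Ppp1r3f.

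Markers of other tissues and of fasting also moved between libraries, and their part in the values of the subunits was not tested. As background for all lists below, 50% of all genes tested had a negative log2 fold change, and the median was -4.35e-05. By edgeR's quasi-likelihood test, 7.58% of all genes had an unadjusted p under 0.05. Genes that rise in muscle with fasting and glucocorticoids (15 listed, all tested) summed to 2329, 997 and 711 TPM in MI4KO 1, 2 and 3 and 679, 690 and 761 TPM in MI4OE 1, 2 and 3, so that MI4KO 1 stood highest as it did for Ppp1r3c. All 15 had a negative log2 fold change, with a median of -0.77, but 0 had an adjusted p under 0.05 and 5 had an unadjusted p under 0.05 by edgeR's quasi-likelihood test, and 1, Angptl4, passed correction with DESeq2 and with the exact test. These were Cebpd (-1.44), Tsc22d3 (-0.66), Trim63 (-1.22), Mt2 (-3.70) and Angptl4 (-1.95). Of the 15, 10 were highest in MI4KO 1, 4 in MI4KO 2 (Zbtb16, Per1, Klf15 and Tsc22d3) and 1, Angptl4, in MI4KO 3. Mt2, a metallothionein gene, had 370 TPM in MI4KO 1 and 10.6 to 26.2 TPM in the other libraries. Trim63, a muscle ubiquitin ligase gene, had 598 TPM in MI4KO 1 and 131 to 268 TPM elsewhere. Angptl4, an inhibitor of lipoprotein lipase, went the other way within MI4KO, with 4.52, 6.14 and 11.98 TPM in MI4KO 1, 2 and 3. This list was chosen with results of these libraries known.

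Adipocyte markers (10 listed) were mostly highest in MI4KO 3, the MI4KO library with the least Ppp1r3c, as 8 of the 10 were. They summed to 458, 1033 and 2184 TPM in MI4KO 1, 2 and 3 and 781, 462 and 403 TPM in MI4OE 1, 2 and 3, so the MI4KO library with the most Ppp1r3c had the lowest sum of its group. Most of the sum was Fabp4, a fatty acid binding protein gene that is not particular to adipocytes, with 320, 736 and 1192 TPM in MI4KO and 731, 344 and 332 TPM in MI4OE. Without Fabp4 and Plin4, a choice made after seeing the data, the other 8 summed to 56.9, 237 and 928 TPM in MI4KO and 12.5, 59.1 and 18.4 TPM in MI4OE, so that MI4OE 1 was then the lowest library and MI4KO 1 lay within the range of MI4OE. Of 9 tested, 9 had a negative log2 fold change, with a median of -3.58, 7 had an unadjusted p under 0.05 and 0 an adjusted p under 0.05 by edgeR's quasi-likelihood test, while 1 passed correction with DESeq2 and 5 with the exact test. The 7 were Adipoq, Cfd, Plin1, Cidec, Lep, Retn and Pparg. Hepatocyte markers (10 listed, 3 tested) summed to 4.93, 11.5 and 86.4 TPM in MI4KO 1, 2 and 3 and 2.89 to 7.44 TPM in MI4OE, with Alb lower in MI4OE at an unadjusted p of 0.0442. Macrophage markers (7 of 8 found) summed to 51.9 to 96.1 TPM in MI4KO and 38.0 to 76.6 TPM in MI4OE, and 0 passed correction by any of the 3 tests or had an unadjusted p under 0.05 by edgeR's quasi-likelihood test.

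Fibre-type markers moved with MI4OE 1, the library that was lowest in 4 subunits. All 11 slow-fibre markers had a positive log2 fold change, with a median of 5.14, and 8 had an unadjusted p under 0.05 while 0 passed correction by edgeR's quasi-likelihood test, DESeq2 or the exact test. The 8 were Myh7, Myl2, Tnni1, Tnnt1, Tnnc1, Tpm3, Atp2a2 and Casq2. Myh7, the slow myosin heavy chain gene, had 395 TPM in MI4OE 1, 0.08 TPM in MI4OE 2 and 45.4 TPM in MI4OE 3. Of the 13 fast-fibre markers, 11 had a negative log2 fold change (median -0.32) and 0 had an unadjusted p under 0.05. Without MI4OE 1, Ppp1r3c had a log2 fold change of -1.67 (unadjusted p 0.0201, adjusted p 0.863, edgeR's quasi-likelihood test).

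**Figure D5:**
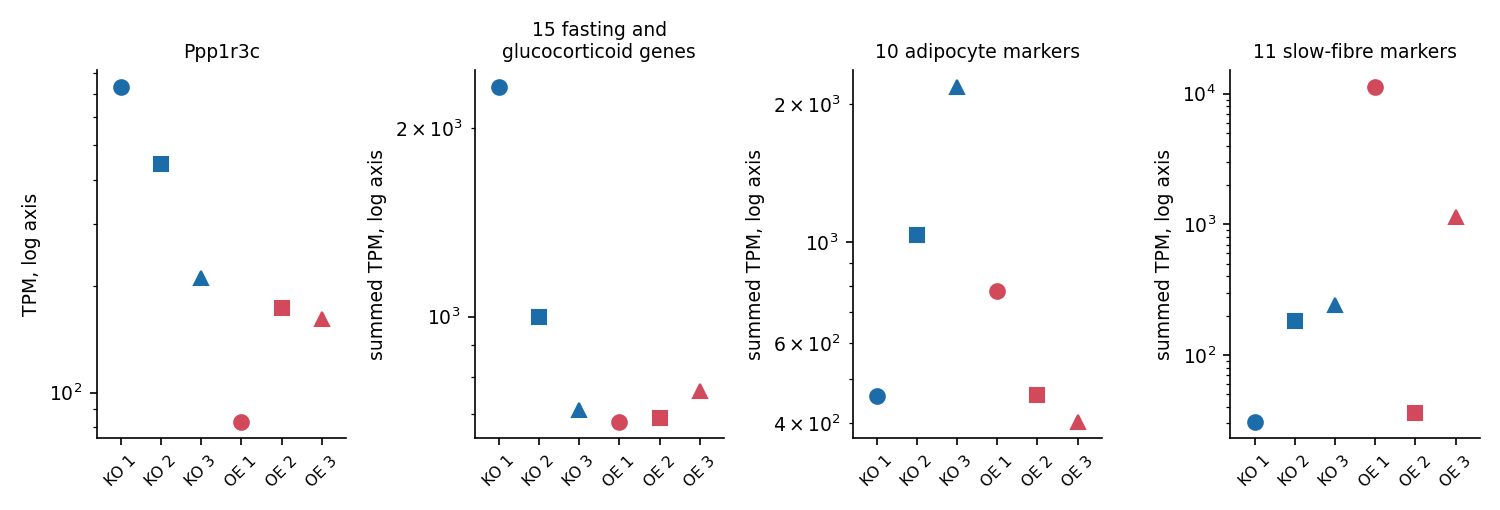
TPM of Ppp1r3c and summed TPM of 3 marker lists in each library (MI4KO blue, MI4OE red), on log axes. MI4KO 1 is highest for Ppp1r3c (731 TPM) and for the fasting and glucocorticoid genes (2329 TPM), MI4KO 3 for adipocyte markers (2184 TPM) and MI4OE 1 for slow-fibre markers (11229 TPM).

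The genes whose products work with the subunits were examined next. The 3 genes for the PP1 catalytic subunit had negative log2 fold changes, of -0.17 for Ppp1ca, -0.28 for Ppp1cb and -0.39 for Ppp1cc, and 0 had an unadjusted p under 0.05. Ppp1cc had 91.7, 118 and 95.7 TPM in MI4KO and 55.4, 99.9 and 90.7 TPM in MI4OE, and its adjusted p was 0.726 (edgeR's quasi-likelihood test). Its groups overlapped in TPM, but in CPM MI4OE was lower without overlap, as it was for 5.48% of all genes. Of 16 tested genes for glycogen enzymes and their kinases, 14 had a negative and 2 a positive log2 fold change, with a median of -0.098. Of all genes tested, 50% had a negative one. By edgeR's quasi-likelihood test, DESeq2 or the exact test, 0 of the 16 passed correction. Only Gyg of the 16 was lower in MI4OE without overlap in CPM, against 5.48% of all genes. Gys1, muscle glycogen synthase, had 139, 223 and 176 TPM in MI4KO and 167, 181 and 184 TPM in MI4OE, a difference of -0.054 ± 0.17 (log2 fold change and SE). Pygm, muscle glycogen phosphorylase, had 6295, 7453 and 5666 TPM in MI4KO and 2863, 6834 and 5677 TPM in MI4OE, with MI4OE 1 the lowest library again (log2 fold change -0.43 ± 0.30 SE, adjusted p 0.815, edgeR's quasi-likelihood test).

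Pygl, liver glycogen phosphorylase, was the single gene of the 16 with an unadjusted p under 0.05. It had 0.47, 4.53 and 2.93 TPM in MI4KO 1, 2 and 3 and 0.51, 0.73 and 0.90 TPM in MI4OE 1, 2 and 3. The groups overlapped, because MI4KO 1 lay at the level of the MI4OE libraries, as it also did in CPM, with 0.983 CPM against 0.935 to 1.46 CPM in MI4OE. It differed by -1.85 ± 0.63 (log2 fold change and SE) at an unadjusted p of 0.0203 (adjusted p = 0.550 by edgeR's quasi-likelihood test). Ppp1r3b, the liver subunit, likewise had its highest levels in MI4KO 2 and 3.

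Proteins that bind the subunits or glycogen showed no called difference. Epm2a encodes laforin, a glycogen phosphatase, and had 31.2, 67.6 and 36.0 TPM in MI4KO and 14.1, 65.8 and 38.3 TPM in MI4OE (log2 fold change -0.25 ± 0.45 SE). Nhlrc1 encodes malin, the ubiquitin ligase that acts with laforin, and had 3.11 to 6.38 TPM over the 6 libraries (log2 fold change 0.076 ± 0.25 SE). Stbd1, a glycogen-binding protein gene, had 19.1 to 41.0 TPM in MI4KO and 26.6, 50.02 and 35.1 TPM in MI4OE (log2 fold change 0.15 ± 0.35 SE). Ppp1r3g, a further glycogen-targeting subunit known from liver, had 2 counts in MI4OE 1 and 0 in the other libraries and was not tested.

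Other PP1 regulatory subunits, taken as 33 genes with a Ppp1r symbol outside Ppp1r3, were set beside the family. Of 26 tested, 16 had a positive and 10 a negative log2 fold change, with a median of 0.075, and 0 passed correction by edgeR's quasi-likelihood test, DESeq2 or the exact test. Their summed level was 743 to 830 TPM in MI4KO and 769 to 971 TPM in MI4OE. An unadjusted p under 0.05 was found for 2 of the 26, a share near the 7.58% of all genes. These were Ppp1r12c, a myosin phosphatase targeting subunit, and Ppp1r14a. Ppp1r12c had a log2 fold change of 0.53 (unadjusted p 0.0414, adjusted p 0.626, edgeR's quasi-likelihood test). Ppp1r14a, an inhibitor of myosin phosphatase known from smooth muscle, had 2.08, 4.54 and 3.83 TPM in MI4KO and 13.2, 6.01 and 5.56 TPM in MI4OE (log2 fold change 1.25, unadjusted p 0.031, adjusted p 0.602, edgeR's quasi-likelihood test).

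Ppp1r3a, Ppp1r3b, Ppp1r3c, Ppp1r3d and Ppp1r3e were each represented by 1 transcript, so the counts and TPM of the transcript were those of the gene, while the test was fitted and adjusted over transcripts. Ppp1r3f had 2 transcripts, of 3489 and 3492 bases. The shorter took 100% of the gene in 5 libraries and 99.2% in MI4OE 3, where the longer had 0.73 expected counts. No transcript of the members had an adjusted p under 0.05 by edgeR's quasi-likelihood test, which 0.00626% of 15983 transcripts tested had, or by DESeq2, where 1% had. At these shares a count of 0 says nothing particular of the members. The transcript of Ppp1r3c differed by -1.87 ± 0.56 (log2 fold change and SE) at an unadjusted p of 0.0168 and an adjusted p of 0.999 by the quasi-likelihood test. Reads of Ppp1r3f and of Ppp1r3fos, a transcript named as lying on its opposite strand, were divided by the authors' counting, with 0 to 4.11 expected counts given to Ppp1r3fos.

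Each subunit was set beside the genes with a mean of at least 1 CPM, and likeness was measured as Pearson's r of log2(CPM + 1) over the 6 libraries, as a description with no test. Ppp1r3c was most like Ift57 (r = 0.996) and Ccz1 (r = 0.995), and 90 of 11296 candidates had an r over 0.95. Ccz1 had 58.6, 50.3 and 43.0 CPM in MI4KO and 36.1, 42.2 and 40.3 CPM in MI4OE, a far smaller range than that of Ppp1r3c. Ppp1r3a was most like Lnp and Mier3 (r = 0.998 for both), with 317 candidates over 0.95. Ppp1r3b was most like Letmd1 (r = 0.990) and Tgtp1 (r = 0.986), and Tgtp1 had 14.7 CPM in MI4KO 2 against 1.33 to 3.69 CPM elsewhere. Ppp1r3d was most like Ago1 (r = 0.996) and Arhgef11 (r = 0.989), and Ppp1r3e was most like Nif3l1 (r = 0.998) and Serpine2 (r = 0.987), with 50 and 7 candidates over 0.95. Ppp1r3f, whose range was narrow, was most like Syvn1 (r = 0.972) and Dync2h1 (r = 0.924), with 1 candidate over 0.95. All points share the depth and scaling of their library, and 6 libraries are few for such a likeness.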

How the data were processed

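RNA-seq of gastrocnemius was analysed in 3 MI4KO and 3 MI4OE libraries, grouped by the genotype label. Per the labels, mRNA was enriched and stranded libraries were prepared. The submitters' processing notes name bcl2fastq 2.17, Bowtie2 2.1.0 and RSEM 1.2.15, and the genome build is not given in the sources used here. The deposited expected counts are RSEM estimates by the authors, not normalized, in which a read may be shared between genes. The deposited TPM values are the authors' abundances adjusted for length, and the percent of each gene taken by a transcript is also as deposited by the authors. Tables of the authors' fold changes, p-values and false discovery rates were not used.

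Expected counts were rounded and tested with edgeR 4.0.16 in R 4.3.3 by the quasi-likelihood test, with TMM factors, filterByExpr (minimum count 10, minimum total 15) and Benjamini-Hochberg adjustment over 12660 genes. CPM used TMM-scaled library sizes. Standard errors were computed from the log2 fold change and its F statistic. Alternatives used limma 3.58.1, DESeq2 1.42.0, other scalings and filters, and fits without each library. The tests were also run on simulated counts, which held no outlying library, so that run does not bear on the subunit results given here. Poisson intervals (95%) and the detection floor of 3 counts reflect counting error alone. Composition measures used exact permutation tests. The sign-flip test planned for the order of levels is not reported, because the tested libraries also set the order.

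The genes named are the 6 subunits, Irf4, the listed partner genes, list members with an unadjusted p under 0.05 and the 2 genes most like each subunit. The subunits and the lists were chosen with earlier results of these data known. Promoter sequences came from RefSeq (GRCm38.p6). Protein sequences were not used here.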

Additional observations from a re-analysis of the deposited data

How the results depend on the processing

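The log2 fold changes of the 6 subunits kept their direction in 92 of 95 alternatives. All 3 reversals came from fits without 1 library. Most alternatives were other scalings, filters or tests on the same 6 libraries, so this share says little of stability between libraries. The permutation tests of composition cannot pass 0.05 with 3 libraries a group, so their p-values say nothing of stability. The log2 fold change of Ppp1r3c stayed negative in all 16, from -2.26 to -1.17 without 1 library and from -1.91 to -1.62 otherwise, and passed correction with DESeq2 alone (-1.90), while edgeR's exact test gave an adjusted p of 0.0537. The other subunits passed under no alternative. Without 1 library their log2 fold changes ran from -0.65 to 0.082 for Ppp1r3a (0.082 without MI4KO 2), -1.78 to -0.42 for Ppp1r3b, -0.012 to 0.54 for Ppp1r3d (-0.012 without MI4OE 3), -0.50 to -0.12 for Ppp1r3e and -0.084 to 0.12 for Ppp1r3f (-0.084 without MI4OE 2), and the cause of the 3 changes of sign was not tested. Ppp1r3b was left out by a mean CPM of at least 1. With limma its log2 fold change was smaller, at -0.31 on log2(TPM + 1) and -0.75 on log2(TPM + 0.1). Genes with an adjusted p under 0.05 numbered 3, against 111 with DESeq2, 112 with the exact test and 1 to 4 without 1 library (1 without MI4KO 1). The unadjusted threshold of 0.05 with a 1.5-fold change passed 841 genes (552 higher, 289 lower), against 468 with limma on log2(TPM + 1) and 590 to 1314 without 1 library (1314 without MI4OE 2). At the same thresholds the study reported the opposite balance, with more genes lower than higher in MI4OE, and the cause was not tested. The split into higher and lower moved with 2 libraries, to 298 and 330 without MI4KO 1 and to 305 and 285 without MI4OE 1. The difference in the Ppp1r3c to Ppp1r3a log2 ratio was -1.73 to -0.50 without 1 library, that in the Ppp1r3c share -9.72 to -4.94 percentage points (-13.9 on CPM) and that in the summed TPM -460 to -204 TPM (-204 without MI4KO 1). Total counts without TMM moved the median of all genes by 0.09 log2 units. No paired analysis was possible because nothing in the labels ties a knockout library to an overexpressing one. Depth limits Ppp1r3b most, with 7.07 counts in its lowest library.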
